A study of Mus musculus with 4 samples.

Results

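The genes of the cytotoxic granule were followed here in intestinal and splenic CD8 T cells: the granzymes *Gzma*, *Gzmb*, *Gzmc*, *Gzmd*, *Gzme*, *Gzmk* and *Gzmm*, the perforin gene *Prf1*, *Nkg7* and the serglycin gene *Srgn*. Every probe of the array that was not a control and carried one of these gene names was taken, which gave 11 probes for the 10 genes, out of 41174 probes for 27376 gene names. The cells were CD8αβ+ IELs, intraepithelial lymphocytes sorted from the small intestine, and CD8αβ+ SPLs, the same type of T cell sorted from the spleen. Both came from wild-type male mice of 8 to 12 weeks, with no treatment, and each group held 2 samples (replicates 1 and 2), each hybridised to 1 one-colour array. Each sample was sorted from a pool of mice, per the study's account of the arrays. The sources do not say whether the pools of a group were made separately, so the tests below measure the spread between these arrays, which may be technical.

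Killer lymphocytes store their killing proteins in acidic secretory granules. On contact with a target the granules are released, perforin makes pores in the target membrane, and granzymes, which are serine proteases, enter and cleave proteins there. Serglycin is the proteoglycan that holds the granzymes in the granule, and Nkg7 is a membrane protein of the granule that takes part in its release. Granzymes A and B are the best known members and are stored by many intraepithelial lymphocytes, while naive CD8 T cells of the spleen hold little of them.

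Each probe is 60 bases long and lies, by the array's mm9 coordinates, at 1 place in its gene. No mm9 gene models were used here, so exons and untranslated parts were not assigned to the probes. *Gzma* (chr13:113885986-113886045) and *Gzmk* (chr13:113962100-113962159) lie close together on the minus strand of chromosome 13. *Gzmb* (chr14:56877916-56877975), *Gzmc* (chr14:56851095-56851154), *Gzmd* (chr14:56750116-56750175) and *Gzme* (chr14:56738175-56738234) form a cluster on the minus strand of chromosome 14. *Gzmm* (chr10:79157233-79157292) and *Prf1* (chr10:60766528-60766587) are on the plus strand and *Srgn* (chr10:61957219-61957278) on the minus strand of chromosome 10, and the *Nkg7* probes (chr7:50693148-50693207 and chr7:50693482-50693541) are on the plus strand of chromosome 7. Sequences are given 5′ to 3′ for the granzyme probes on which the intestinal and splenic arrays did not overlap, except *Gzmb*, and for *Gzmd* and *Gzme*, whose probes are nearly alike. For the last pair, capitals mark the bases that are the same in the best alignment without gaps: 43 of the 51 overlapping bases matched, and the longest shared run was 14 bases.
Gzma probe: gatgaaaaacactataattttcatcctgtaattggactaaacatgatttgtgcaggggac
Gzmk probe: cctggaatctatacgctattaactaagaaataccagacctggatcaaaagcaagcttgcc
Gzmc probe: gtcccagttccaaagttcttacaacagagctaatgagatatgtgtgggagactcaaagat
Gzmd probe: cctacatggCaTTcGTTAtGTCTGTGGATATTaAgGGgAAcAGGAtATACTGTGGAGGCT
Gzme probe: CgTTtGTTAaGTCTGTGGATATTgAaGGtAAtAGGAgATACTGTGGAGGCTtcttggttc
No other pair of granzyme probes matched at more than 27 bases, so the *Gzmd* and *Gzme* probes could share transcripts more readily than the rest.

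The 4 arrays lay on 2 slides, with IEL 1 and SPL 2 on slide 1 and IEL 2 and SPL 1 on slide 2. A level is the log2 processed intensity minus the log2 75th percentile of that array, which was 312 to 605 intensity units, and 63.6% to 69.6% of the probes were well above background. IEL 2 stood apart from IEL 1. Over 27912 probes the IEL arrays correlated at r = 0.946, IEL 2 and SPL 1 at 0.992, and the SPL arrays at 0.986. Summed levels, in multiples of the array's 75th percentile, are given in the order IEL 1, IEL 2, SPL 1 and SPL 2. Of all tested probes 24.4% were higher on both IEL arrays and 24.5% lower, the shares to set beside the counts of the marker lists. All 8 CD8 T cell markers were well above background on every array, with sums of 612, 669, 673 and 654. Both groups thus carried their defining markers, and of the 8 genes 3 were higher on both IEL arrays, 3 lower and 2 overlapping, from *Cd3g* (log2 fold change 0.52) to *Cd2* (−1.13). The naive T cell list summed to 11.8, 128, 165 and 190, with 5 of 5 genes lower on both IEL arrays, of which *Tcf7* differed least (−1.16). The resident effector list summed to 165, 71.3, 51.1 and 47.3, from *Itga1* (5.75, not well above background in SPL 2) to *Cd69* (−0.10). IEL 2 therefore lay near the spleen arrays in its naive markers.

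Markers of other cells also differed between the arrays, though not all in the same order. The neutrophil list summed to 0.213, 34.9, 43.1 and 48.5 (4 of 5 genes tested, 4 lower on both IEL arrays, *Mpo* −0.83 to *S100a8* −4.97, the latter not well above background in IEL 1), the largest ratio between the IEL arrays of any marker list. The erythroid list summed to 1.06, 74.3, 98.1 and 115 (4 of 4 lower) and the B cell list to 3.55, 19.5, 24.96 and 19.1 (1 of 4 tested genes lower on both arrays). In the other direction the epithelial list summed to 24.9, 7.13, 3.99 and 2.21 (7 of 7 higher on both IEL arrays) and the Paneth cell list to 218, 7.47, 6.28 and 5.26 (4 of 5 higher). In the SPL arrays most of the Paneth cell sum was *Lyz1* (levels 4.66, 1.97, 2.30 and 2.35). *Defa1* lay at 7.49, 1.66, 0.19 and −5.04. *Itln1* lay at 3.17, −2.54, −3.90 and −8.52, not well above background in SPL 2. *Mmp7* was likewise higher in SPL 1 than in SPL 2 (−4.58 and −5.53), while *Ang4* was lower (−3.34 and −3.08). Every epithelial gene was also higher in SPL 1 than in SPL 2, as in *Cdh1* (−0.57 and −4.18). A pair of further lists hold cells that store granule proteases. NK cell markers summed to 1.58, 7.96, 8.63 and 6.45, with *Ncr1* not well above background in IEL 1 (of 4 genes 1 higher on both IEL arrays, 1 lower). Mast cell markers summed to 1.02, 0.941, 0.579 and 0.507 (of 7 tested genes 2 higher, none lower). In IEL 1 most of this sum was *Kit* (level −0.55). The protease genes *Mcpt1*, *Mcpt2*, *Mcpt4* and *Cpa3* were not well above background in IEL 1, while *Cma1* and *Tpsb2* were (−3.45 and −4.07). Myeloid markers summed to 47.5, 31.9, 37.3 and 39.1 (1 of 5 lower). Most of this sum was *Lyz2* (levels 5.56, 4.81, 5.02 and 5.21). *Itgam*, *Csf1r*, *Adgre1* and *C1qa* were each lowest in IEL 1. *C1qa* was not well above background there (−5.54, 0.36, 0.66 and −0.78). Of the γδ T cell genes *Sox13* was nowhere well above background, and *Cd163l1* lay at −3.75, 1.76, 1.93 and 1.73. The study's gate for the sorted T cells took CD45+ cells with CD3, CD8α, CD8β and TCRβ on their surface. The part of other cells in the granule gene levels was not tested, and in sorted bulk RNA fewer cells of a type and less RNA per cell cannot be told apart.

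Of the 10 granule genes, 8 (9 of the 11 probes) were, in at least 1 group, well above background on both arrays and were tested among 27938 probes. In *Gzma*, *Gzmb*, *Gzmk*, *Gzmc* and *Nkg7* both IEL arrays lay above both SPL arrays, in no tested member were both below, and *Gzmm*, *Prf1* and *Srgn* overlapped. Among all tested probes 24.4% had both IEL arrays above and 24.5% both below. None of the members passed the adjusted threshold of 0.05 in limma, as none of the 27938 probes did (0%), although 1295 higher and 308 lower probes had an unadjusted p below 0.05. The unpaired test of the study's methods called none after adjustment either, with 470 higher and 349 lower at an unadjusted p below 0.05. The median log2 fold change was 1.73 over the 8 genes and −0.0007 over all tested probes. With 2 arrays against 2, an exact two-sided permutation test of a single gene cannot go below p = 0.333.

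**Figure D1:**
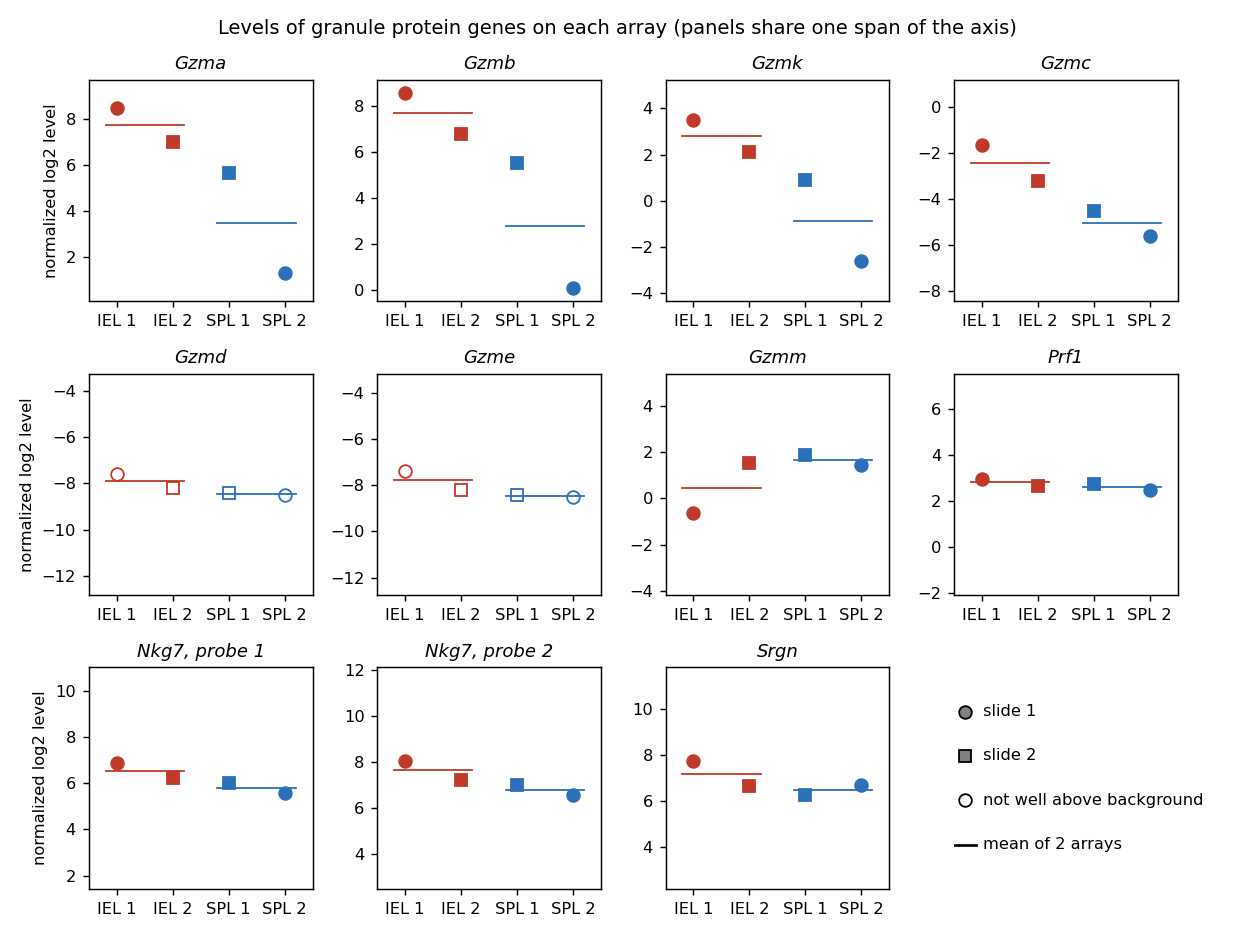
Normalized log2 level (log2 processed intensity minus the log2 75th percentile of the array) of each of the 11 probes on the 4 arrays. Red marks CD8αβ+ IELs, blue CD8αβ+ SPLs, circles slide 1, squares slide 2, open symbols a probe not well above background and lines the mean of 2 arrays. In *Gzma*, *Gzmb* and *Gzmk* SPL 2 lies far below the other 3 arrays, whereas *Prf1* is nearly level.

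The granzymes with the largest differences were *Gzmb*, *Gzma* and *Gzmk*. Granzyme B cleaves after aspartate and activates caspases. The level of *Gzmb* was 8.56 in IEL 1, 6.79 in IEL 2, 5.51 in SPL 1 and 0.10 in SPL 2, or 117374, 47995, 21842 and 649 intensity units. The IEL arrays did not overlap with the SPL arrays, but SPL 1 was nearer to IEL 2 than to the other spleen array. The log2 fold change was 4.86 ± 1.94 (standard error, n = 2 and 2, 29.1-fold, 95% interval −0.35 to 10.08, adjusted p = 0.634 from limma).

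Granzyme A is a tryptase, which cleaves after basic residues. Its gene *Gzma* had levels of 8.46, 6.99, 5.66 and 1.32 on the arrays in the same order (109580, 55320, 24185 and 1512 units). SPL 2 was again the low array, and the groups did not overlap. The log2 fold change was 4.23 ± 1.57 (standard error, n = 2 and 2, 18.8-fold, 95% interval 0.03 to 8.44, adjusted p = 0.634 from limma). Granzyme K is a second tryptase, encoded beside granzyme A. *Gzmk* had levels of 3.49, 2.10, 0.89 and −2.60 (3500, 1870, 886 and 99.6 units), with the same order and no overlap. The log2 fold change was 3.65 ± 1.29 (standard error, n = 2 and 2, 12.6-fold, 95% interval 0.18 to 7.12, adjusted p = 0.634 from limma).

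The spread inside the spleen group was about as wide as the difference between the groups for these 3 genes. SPL 1 exceeded SPL 2 by 5.41 log2 units (42.4-fold) in *Gzmb*, by 4.33 (20.2-fold) in *Gzma* and by 3.49 (11.2-fold) in *Gzmk*. Few probes differed more between the SPL arrays: 0.0251%, 0.104% and 0.190% of the tested probes, respectively. The IEL arrays were closer together, and IEL 1 exceeded IEL 2 by 1.77 (3.41-fold), 1.47 (2.76-fold) and 1.38 (2.61-fold). Without SPL 2 the log2 fold changes were 2.16, 2.07 and 1.91, and without SPL 1 they were 7.57, 6.40 and 5.40.

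Granzyme C is a mouse granzyme seen in strongly activated killer cells, and *Gzmc* was dim. Its levels were −1.67, −3.22, −4.50 and −5.59 (98.1, 46.6, 21.2 and 12.5 units). All 4 were called well above background, the lowest in SPL 2, where the lowest probe so called had 7.92 units and the median of 153 negative control spots was 1.69. The groups did not overlap, and the log2 fold change was 2.60 ± 0.68 (standard error, n = 2 and 2, 6.07-fold, 95% interval 0.77 to 4.43, adjusted p = 0.634 from limma). Here the spread between the SPL arrays (1.09) was smaller than the difference. This value depended on the background correction: under normexp it was −0.48, where the median of all probes was −0.38, and 1.25 after spots far below their local background were left out, where that median was 0.15.

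*Gzmd* and *Gzme*, the genes of 2 further mouse granzymes of the same cluster, did not rise well above background in any sample. Their probes, printed above, read 1.42 to 1.69 and 1.41 to 1.85 units, near the negative controls, whose medians were 1.48 to 1.69, so no fold was computed. The remaining granzyme genes on the array, *Gzmf*, *Gzmg* and *Gzmn*, likewise had no array well above background. In the chromosome 14 cluster *Gzmb* and *Gzmc* were thus the genes with a measured level.

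*Gzmm* differed from the other measured granzymes. Granzyme M prefers to cleave after methionine or leucine and is typical of NK cells and other innate-like lymphocytes. Its level was −0.65 in IEL 1, 1.55 in IEL 2, 1.87 in SPL 1 and 1.45 in SPL 2 (199, 1270, 1747 and 1647 units). IEL 1 alone was low and IEL 2 lay between the spleen arrays, so the groups overlapped. The log2 fold change was −1.21 ± 0.79 (standard error, n = 2 and 2, 2.31-fold lower, 95% interval −3.33 to 0.92, adjusted p = 0.634 from limma). It was −0.11 without IEL 1 and −2.30 without IEL 2. The sum of the NK cell list was also lowest in IEL 1 (1.58 against 6.45 to 8.63). Most of this sum was *Tyrobp* on every array (levels 0.02, 2.74, 2.85 and 2.43). *Ncr1* was dim (−7.05, −4.53, −3.99 and −4.14). The genes of the list did not move together. *Klrb1c*, singled out after its values were seen, was highest in IEL 1 (−1.01, −1.06, −1.15 and −1.52). The part of the NK cell genes was not tested.

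*Prf1*, the gene of the pore protein, had levels of 2.96, 2.66, 2.73 and 2.49. The arrays of both groups overlapped and spanned less than 1 log2 unit. Before scaling, the processed intensities ran the other way, from 2421 and 2746 units in the IEL arrays to 3181 and 3405 in the SPL arrays. The log2 fold change was 0.20 ± 0.26 (standard error, n = 2 and 2, 1.15-fold, 95% interval −0.50 to 0.89, adjusted p = 0.766 from limma). The interval still includes a 1.85-fold rise, so an equal level was not shown.

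*Nkg7* was measured by a pair of probes that gave nearly the same difference. The first probe had levels of 6.86, 6.22, 6.002 and 5.58, and the second had 8.04, 7.23, 7.01 and 6.56. On both probes the order of the arrays was that of *Gzma*, with no overlap and with steps of less than 1 log2 unit. The log2 fold change was 0.75 ± 0.34 on the first probe and 0.86 ± 0.39 (standard errors, n = 2 and 2, 1.68-fold and 1.81-fold, adjusted p = 0.634 for both from limma) on the second. *Srgn*, which encodes the granule proteoglycan serglycin, had levels of 7.72, 6.64, 6.28 and 6.72. IEL 1 was high and IEL 2 lay between the spleen arrays, and the log2 fold change was 0.69 ± 0.45 (standard error, n = 2 and 2, 1.61-fold, 95% interval −0.53 to 1.91, adjusted p = 0.634 from limma).

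Each slide held 1 array of either group, which gave a comparison within slide, with no replicate. On slide 1 the IEL array exceeded the SPL array by 8.45 log2 units in *Gzmb* (350.4-fold), 7.13 in *Gzma* (140.5-fold), 6.09 in *Gzmk* (68.1-fold) and 3.92 in *Gzmc* (15.2-fold). On slide 2 the same genes differed by 1.28 (2.42-fold), 1.33 (2.52-fold), 1.22 (2.33-fold) and 1.28 (2.43-fold), within 0.12 log2 units of each other. Smaller differences on slide 2 were not particular to the granzymes. The median of the epithelial list was 5.11 on slide 1 and 1.27 on slide 2, and that of the Paneth cell list 6.15 and 0.98. *Nkg7* differed by 1.28 and 1.49 on slide 1 and by 0.21 and 0.22 on slide 2, and *Srgn* by 1.01 and 0.37. *Gzmm* was 2.09 lower on slide 1 (4.27-fold) and 0.32 lower on slide 2, and *Prf1* turned from 0.46 to −0.07.

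Thus 6 member genes were at least 2-fold higher on slide 1, where 11.8% of all tested probes were, and *Gzmm* was at least 2-fold lower, as were 13.7%. On slide 2, 4 member genes were at least 2-fold higher against 2.47% of all tested probes, and none was 2-fold lower against 0.73%. The median over the 8 genes was 2.71 on slide 1 and 0.79 on slide 2, while those of all tested probes were −0.005 and 0.002.

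**Figure D2:**
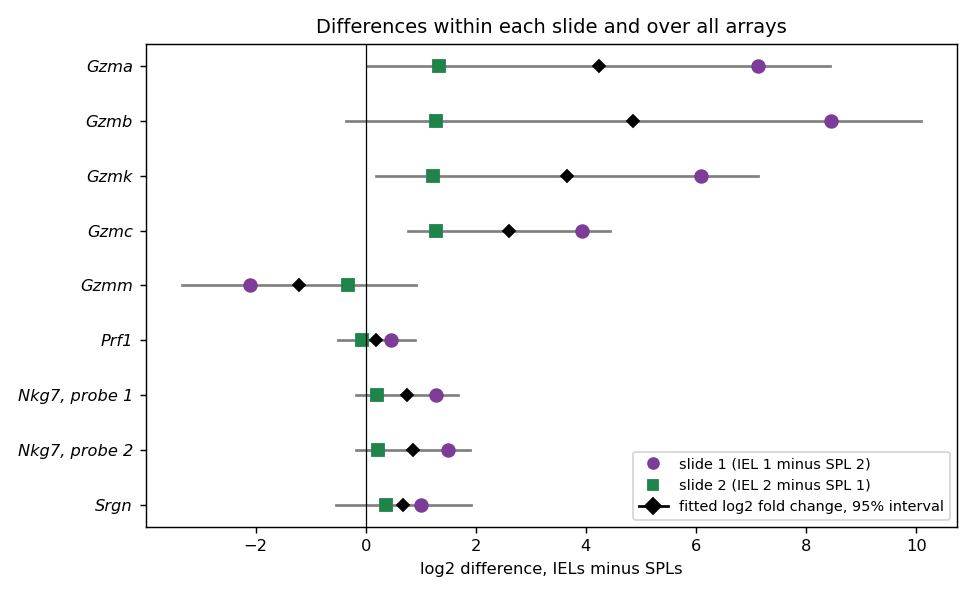
Log2 difference of CD8αβ+ IELs minus CD8αβ+ SPLs for the 9 tested probes: circles, slide 1; squares, slide 2; diamonds with lines, the limma estimate over 4 arrays with its 95% interval. The slide 2 values of *Gzma*, *Gzmb*, *Gzmk* and *Gzmc* lie between 1.22 and 1.33, while those of slide 1 lie between 3.92 and 8.45.

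**Figure D3:**
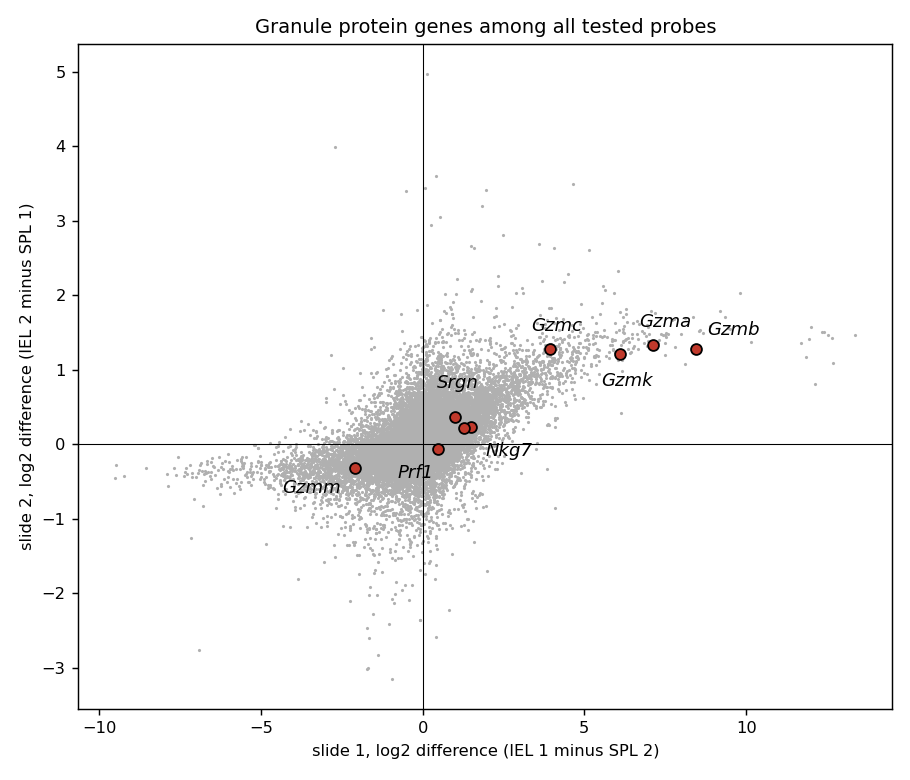
The difference on slide 2 (vertical axis, log2) against that on slide 1 (horizontal axis, log2) for all 27938 tested probes (grey) and the 9 granule gene probes (red). *Gzma*, *Gzmb* and *Gzmk* lie on the right among the probes with the largest differences on slide 1, and *Gzmm* lies below 0 on both axes.

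The 5 genes without overlap shared the order IEL 1, IEL 2, SPL 1, SPL 2 from high to low, an order held by 13.8% of all tested probes. On the linear scale, with SPL 2 set to 0 and IEL 1 to 100, the position of IEL 2 was 37.4 in *Gzmk*, 35.8 in *Gzma*, 29.4 in *Gzmc* and 29.1 in *Gzmb*. In the same genes that of SPL 1 was 15.2, 13.7, 7.97 and 11.9. Over all 1190 probes at least 2 log2 units higher on slide 1, the median position of IEL 2 was 25.9 (quartiles 15.4 and 36.0). The median position of SPL 1 over these probes was 8.41 (quartiles 3.31 and 13.8). *Gzma*, *Gzmb* and *Gzmc* lay between the quartiles for both arrays, and *Gzmk* lay above them. Such positions were thus not particular to the granzymes. For *Gzmm*, where IEL 1 was the lowest array, IEL 2 and SPL 1 lay outside the range from 0 to 100, at −9.50 and −44.2. Over all 1378 probes at least 2 log2 units lower on slide 1, the quartiles were 7.95 and 44.4 for IEL 2. For SPL 1 they were −18.5 and 28.6, and *Gzmm* lay below the quartiles for both arrays.

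Because IEL 2 resembled the spleen arrays in its naive T cell markers, the fit was repeated without it, an alternative in which the lone IEL array is assumed to vary like the SPL arrays. Of all tested probes 8.56% then passed higher and 11% lower. Among the members *Gzmc* passed with a log2 fold change of 3.38 (adjusted p = 0.0171 from limma), the second *Nkg7* probe with 1.26 (adjusted p = 0.0489) and *Gzmm*, as a fall, with −2.30 (adjusted p = 0.0127). *Srgn* (1.23, adjusted p = 0.0511), the first *Nkg7* probe (1.07, adjusted p = 0.0662), *Gzmk* (4.35, adjusted p = 0.0990), *Gzma* (4.97, adjusted p = 0.117), *Gzmb* (5.75, adjusted p = 0.135) and *Prf1* (0.34, adjusted p = 0.390) did not pass. The granzymes with the largest differences were thus not those that passed. Over the other alternatives the adjusted p was 0.205 to 1 for *Gzmc*, 0.470 to 1 for *Gzmm* and 0.465 to 1 for the second *Nkg7* probe.

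Genes that act on the granule or beside it were read from lists of the pathway, and none of their genes passed the adjusted threshold over all arrays. Granzymes are made as inactive proenzymes that cathepsins activate, and serpins of the killer cell inhibit granzymes that leak into it. Of 11 such genes 10 were tested, 7 were higher on both IEL arrays, none was lower (24.4% and 24.5% of all tested probes), and the median log2 fold change was 0.86. *Serpinb9*, the inhibitor of granzyme B, was the highest, with levels of 1.67, −0.40, −1.32 and −2.89. Its order was that of *Gzmb*, and its log2 fold change was 2.74 ± 0.91 (standard error, n = 2 and 2, 6.70-fold, adjusted p = 0.634 from limma). *Ctsh*, a cathepsin that can process progranzyme B, was the lowest, with levels of −0.88, 2.25, 2.38 and 1.98, low in IEL 1 alone (−1.50 ± 1.09, standard error). Without IEL 2, 5 genes of the list passed higher and 1 lower (8.56% and 11% of all tested probes).

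The list of granule formation and exocytosis held 20 tested genes, of which 10 were higher on both IEL arrays, 1 lower and 9 overlapping (24.4% of all tested probes higher, 24.5% lower), with a median of 0.17. *Stx11*, a syntaxin needed for granule fusion, was the highest, with levels of 0.09, −0.89, −1.45 and −2.12 (log2 fold change 1.39 ± 0.46, standard error, adjusted p = 0.634 from limma). *Lyst*, whose loss gives the giant granules of Chediak-Higashi syndrome, was the lowest, with levels of −1.38, 1.00, 1.30 and 1.22 (−1.45 ± 0.84, adjusted p = 0.634 from limma). Its low value came from IEL 1, as in *Gzmm*. Without IEL 2, 3 genes passed higher and 1 lower, against 8.56% and 11% of all tested probes.

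Killing molecules outside the granule pathway were 5 genes, of which 3 were higher on both IEL arrays and 1 lower (24.4% and 24.5% of all tested probes), with a median of 1.73. *Fasl*, the death receptor ligand, had levels of 3.82, 2.92, 1.60 and −0.16 (2.65 ± 0.71, standard error, adjusted p = 0.634 from limma), in the array order of the granzymes. *Lta*, the lymphotoxin alpha gene, had −2.24, −0.17, 0.17 and 0.02 (−1.30 ± 0.74). Without IEL 2, 2 genes passed higher and 1 lower (8.56% and 11% of all tested probes). Transcription factors of cytotoxic T cells were 8 tested genes, of which 6 were higher on both IEL arrays and none lower (24.4% and 24.5% of all tested probes), with a median of 0.61. *Tbx21*, which encodes T-bet, a T-box factor of effector lymphocytes, had levels of 5.40, 4.01, 3.12 and 1.60 (2.35 ± 0.73, standard error, adjusted p = 0.634 from limma). *Eomes*, the related T-box factor, had 0.90, 1.16, 1.55 and 1.08, with overlapping groups (−0.29 ± 0.29). Without IEL 2, 4 of the 8 passed higher and none lower (8.56% and 11% of all tested probes).

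**Figure D4:**
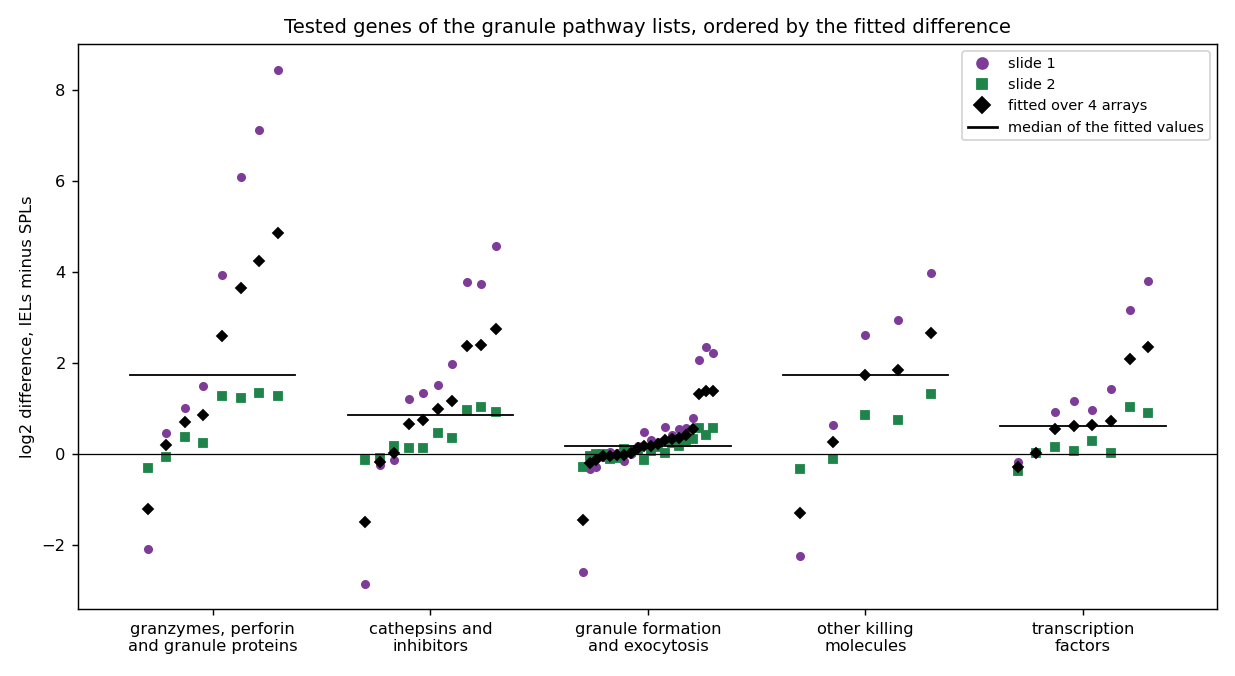
Log2 difference of CD8αβ+ IELs minus CD8αβ+ SPLs for each tested gene of the members and of 4 pathway lists, with circles for slide 1, squares for slide 2, diamonds for the limma estimate and lines for the median estimate of a list. The medians are 1.73, 0.86, 0.17, 1.73 and 0.61 from left to right, and the granule formation and exocytosis genes lie closest to 0.

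Promoters were read from RefSeq (GRCm38.p6) for all 10 members, which have 12 between them, to describe what the 250 bases before the start hold in genes that shared the array order. A search of both strands used TGTGGT (RUNX factors), AGGTGTGA (T-box factors), TGANTCA (AP-1) and TGACGTCA (CRE). TGTGGT was in 9 of the 12 member promoters, each of another gene, and in 14.05% of 32851 promoters of the same length. TGANTCA was found in *Gzmb* alone of the members (6.749% of all promoters), TGACGTCA in *Gzmc* alone (1.546%) and AGGTGTGA in *Nkg7* alone (1.12%). The *Nkg7* promoter and those of *Gzmd* and *Gzme*, genes not measured above background, held TGTGGT as well. So did the *Prf1* promoter, 1 of the *Gzmm* and 1 of the *Srgn* promoters, of genes whose groups overlapped. The motif thus did not set apart the genes that shared the array order. The *Gzmc*, *Gzmd* and *Gzme* promoters are much alike, with matches at 174 and 108, 174 and 112, and 175 and 113 bases, so the 9 are not all separate. The promoters of the 4 granzyme genes that did not overlap between groups are shown with the matches in capitals.
Gzmb promoter, chr14:56262335-56262584, minus strand: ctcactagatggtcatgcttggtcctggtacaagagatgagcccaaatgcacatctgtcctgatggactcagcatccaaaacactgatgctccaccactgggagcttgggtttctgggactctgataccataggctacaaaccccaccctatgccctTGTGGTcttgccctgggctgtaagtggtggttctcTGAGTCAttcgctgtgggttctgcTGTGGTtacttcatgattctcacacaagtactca
Gzma promoter, chr13:113100982-113101231, minus strand: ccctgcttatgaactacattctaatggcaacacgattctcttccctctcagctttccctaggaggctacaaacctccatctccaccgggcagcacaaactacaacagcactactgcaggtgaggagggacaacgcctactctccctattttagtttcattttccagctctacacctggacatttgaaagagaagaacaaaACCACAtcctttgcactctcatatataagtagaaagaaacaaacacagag
Gzmk promoter, chr13:113180966-113181215, minus strand: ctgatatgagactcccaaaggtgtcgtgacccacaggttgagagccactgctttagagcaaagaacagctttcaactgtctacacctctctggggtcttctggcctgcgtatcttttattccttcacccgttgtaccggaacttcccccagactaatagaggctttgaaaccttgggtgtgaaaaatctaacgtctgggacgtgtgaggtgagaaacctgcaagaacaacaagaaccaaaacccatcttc
Gzmc promoter, chr14:56234658-56234907, minus strand: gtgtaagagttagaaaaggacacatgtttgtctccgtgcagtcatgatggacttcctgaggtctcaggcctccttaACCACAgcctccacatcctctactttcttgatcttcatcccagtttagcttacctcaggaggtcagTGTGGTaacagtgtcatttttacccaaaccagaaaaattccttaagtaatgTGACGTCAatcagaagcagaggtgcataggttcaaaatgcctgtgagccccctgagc
In *Gzmb* the TGTGGT matches began 93 and 34 bases before the start and the TGANTCA match 58 bases before it. The match in *Gzma* began 50 bases before the start and those in *Gzmc* 174 and 108, with TGACGTCA at 57. *Gzmk* had no match to any of the 4 motifs in this window. A match is a description of letters, and binding was not measured.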

How the data were processed

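The members, lists and tests were chosen with earlier results of these data known. RNA of 2 CD8αβ+ IEL and 2 CD8αβ+ SPL samples was amplified and labelled with 1 dye, and the authors read the arrays with Agilent Feature Extraction (10.7.1.1 in the submitters' processing notes, 10.7.3.1 per the file headers). The deposited scanner files give a processed intensity per spot, background-corrected by that software. The deposited table of the authors' log2 values served as an alternative. Its columns had medians of 5.57 to 5.59 and correlated with the scanner log2 values at r of 0.999 to 1 with slopes of 0.984 to 1.02, so they are uncentred log2 levels of the same direction, and the normalization is not given in the sources used here. Samples were grouped by their titles and slides were taken from the file headers. The processed intensity was scaled to the 75th percentile of each array over all 43379 spots that are not controls, and log2 was taken. Spots marked as outliers (98 to 179 per array) were left out after this scaling. Repeat spots of a probe were averaged, and no spot was saturated. Member probes had 1 spot each. The number of arrays limits the precision.

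Probes well above background on both arrays of at least 1 group (27938) were tested with lmFit and eBayes in limma 3.58.1 (R 4.3.3), without a block and with 2 residual degrees of freedom, and p-values were adjusted by Benjamini-Hochberg over all of them. Every member probe is named, and of each list the genes with the highest and lowest log2 fold change, except 1 gene that is not reported here. A gene on several probes is given by the one with the largest mean level, except that both *Nkg7* probes are given. As alternatives the arrays were quantile-normalized, scaled by their medians, or scaled over the probes detected on each of them. The background was also corrected by normexp (offset 50), and again without spots over 20 units below their local background (chosen after seeing the data). Further alternatives were the authors' values, no filter, a filter on all 4 arrays, an intensity trend, the replicate number or slide as a block, the methods' t-test, averaging over probes of one gene, and each array left out in turn.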

Additional observations from a re-analysis of the deposited data

How the results depend on the processing

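No probe of the array passed in the main fit or in any alternative except that without IEL 2. Elsewhere the side of the threshold was therefore the same for every probe. The intensity trend, blocks, t-test and filters could not move a member's fold change. Over the 9 member probes, and without regard to size (*Gzmb* ran from 2.16 to 7.57), 140 of 144 values under the alternatives kept direction and side of the threshold. The exceptions were *Gzmc*, which reversed to −0.48 under normexp (adjusted p = 0.673 from limma, dim probe), and *Gzmc*, *Gzmm* and the second *Nkg7* probe, which passed without IEL 2. With each array left out, the probes called over the whole array numbered 0 to 2390 higher and 0 to 3066 lower, both highest without IEL 2, and the median log2 fold change of the same 8 member genes was 1.14 to 2.32, against 1.01 to 1.75 under the alternatives of scaling, background and filter. Normexp moved the median of all probes to −0.38, and its second fit and the absence of a filter each moved it to 0.15. Deviations of arrays with the same replicate number from their group means correlated at r = −0.0250. For arrays on the same slide r was 0.0250, as 2 arrays per group make these values mirror images. This check cannot tell whether samples with the same number were processed together. With the replicate block 0 probes passed in either direction, and the adjusted p from limma was 0.205 for *Gzmc* and 0.234 to 0.290 for *Gzma*, *Gzmb* and *Gzmk*, with unchanged fold changes. The 2 residual degrees of freedom limit every test here.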
